A study of Mus musculus with 9 samples.

Results

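The tricarboxylic acid cycle and the entry of pyruvate into it were followed through 32 genes, taken by name from the 55536 genes counted. They encode enzymes of the cycle, the pyruvate dehydrogenase complex with its kinases and phosphatases, pyruvate carboxylase, the malic enzymes, ATP citrate lyase, glutamate dehydrogenase and the mitochondrial pyruvate carrier. All 32 were among the 15720 genes that passed the filter on low counts, and their counts ran from 184 to 14327 per library. The cells were primary mouse myoblasts, the dividing precursors of muscle fibres, from animals with floxed Uqcrfs1, the gene of the Rieske iron-sulphur protein of respiratory complex III. All 3 groups therefore carried the floxed alleles and an adenovirus. Floxed vehicle (genotype uqcrfs1 +/+ (floxed), 3 libraries) had the virus for green fluorescent protein and then DMSO, knockout vehicle (uqcrfs1 -/- (KO), 3 libraries) had the virus for Cre recombinase and then DMSO, and knockout oxybutynin (uqcrfs1 -/- (KO), 3 libraries) had Cre and then 7.5 µM of oxybutynin, a blocker of muscarinic acetylcholine receptors. Flasks were seeded 72 h after the virus, and drug or DMSO was added 24 h after seeding and kept for 5 days. The series' design text says that the drug was chosen for improving the proliferation of cells with a complex III defect. No group of floxed cells had the drug, the genotype cannot be told apart from the virus given, and the sources used here do not give the animals' age. Whether replicates were separate cultures or animals is not in the labels, so p-values reflect only how much these libraries vary, and that variation may be technical.

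Pyruvate made by glycolysis enters mitochondria through the carrier MPC and is either oxidised to acetyl-CoA by the pyruvate dehydrogenase complex or carboxylated to oxaloacetate by pyruvate carboxylase. Pyruvate dehydrogenase kinases switch the complex off by phosphorylation and the phosphatases switch it back on. The cycle then oxidises acetyl-CoA and passes electrons to the respiratory chain, in which complex III lies downstream of the cycle's reduced cofactors, and its intermediates also leave for the synthesis of aspartate, lipids and other products.

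Library totals ran from 19604971 to 26226949 counts. Uqcrfs1 was at 1539, 1781 and 1881 counts in floxed vehicle, at 51, 51 and 70 in knockout vehicle and at 71, 69 and 46 in knockout oxybutynin, which goes with the genotype labels. Of 8 myoblast markers all were tested, and their summed level was 4188 to 4350 CPM (each gene's count scaled by the library total with the TMM method) in floxed vehicle, 4099 to 5115 in knockout vehicle and 5017 to 5260 in knockout oxybutynin. The list went both ways in knockout vehicle: Pax7 and Des were called higher (log2 fold change 0.26 and 0.43), Myf5, Cdh15 and Myog lower (-0.39, -0.88 and -0.55), and the other 3 were not called. Some of these calls changed when a trend on base composition was removed, as given below. Markers of other cell types were much lower. The 7 fibroblast markers summed to 25.1 to 28.2, 55.9 to 73.4 and 60.9 to 79.6 CPM in the same order, with Col1a1 the most abundant, Thy1, Col1a1 and Ly6a called higher in knockout vehicle and Lum at 0 in every library. The 6 leukocyte markers summed to 5.36 to 6.23, 11.3 to 12.95 and 12.7 to 13.7 CPM, mostly Cd68, with Ptprc at 0.193 CPM or less on average in every group. The part of these cell types in the results below was not tested, and in bulk RNA fewer cells of a type and less RNA per cell cannot be told apart. The knockout vehicle libraries were uneven. Replicate 2 stood nearest to floxed vehicle (r of 0.951 to 0.953, beside 0.933 to 0.941 for the other 2), with a mitochondrial-genome share of 2.71% of counts beside 2.04% and 1.95%. Replicate 3 correlated more closely with the oxybutynin libraries (0.992 to 0.993, Pearson's r over log2 CPM of all tested genes, a description) than with the other 2 libraries of its own group (0.990 and 0.986), so results of the drug comparison are given with and without it, and calls that changed without replicate 2 are given beside each gene. The share of counts from the mitochondrial genome was 3.11% ± 0.0333 in floxed vehicle, 2.23% ± 0.417 in knockout vehicle, with 1.78% ± 0.294 in knockout oxybutynin (SD, n = 3). The most abundant entry, the noncoding Gm26917, took 7.70% ± 0.301, 9.43% ± 1.97 and 11.6% ± 1.59 of counts in the same order, while Rn7sk, a small nuclear RNA, took 2.04% ± 0.0949, 3.13% ± 0.668 and 3.59% ± 0.342. The part of these shares in the results was not tested.

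As counted, the genes with the largest rises in knockout were Pcx and 3 of the 4 pyruvate dehydrogenase kinase genes. Against floxed vehicle, 13 of the 32 genes were higher in knockout vehicle, 6 were lower and 13 did not pass the test (edgeR's quasi-likelihood test on all 9 libraries, Benjamini-Hochberg adjusted p under 0.05 over all tested genes). The knockout changed a large part of the transcriptome, with 29.9% of all tested genes called higher and 33.4% called lower, so 13 of 32 and 6 of 32 are to be read against those shares. Lack of overlap was as common. Every knockout vehicle library lay above every floxed one in 13 of the 32 genes and below in 10. Among all 15720 tested genes, this held for 4898 and 5582. The median log2 fold change of the 32 genes was 0.11, and that of all tested genes was -0.01. Pcx, Pdk1, Pdk4 and Pdk2 changed at least 2-fold, and all 4 were higher.

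**Figure D1:**
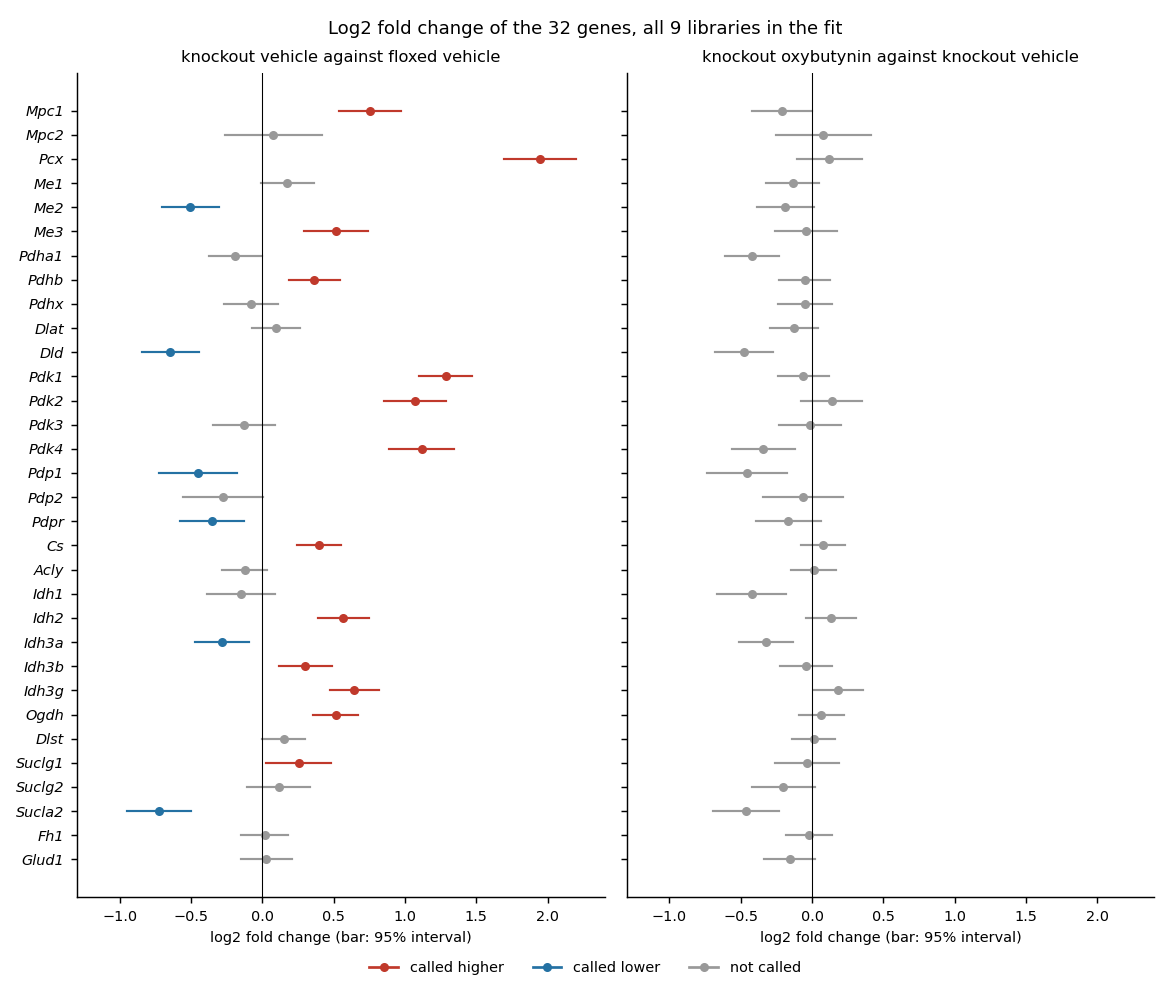
Log2 fold change (x axis) of the 32 genes (y axis, ordered from pyruvate entry to the later steps of the cycle) in knockout vehicle against floxed vehicle on the left and knockout oxybutynin against knockout vehicle on the right. Points are estimates, bars their 95% intervals, red and blue the genes called higher and lower, and grey those not called: 13 are red and 6 blue on the left, and all 32 are grey on the right.

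Pcx encodes pyruvate carboxylase, which makes oxaloacetate from pyruvate and so refills the cycle (chr19:4510472-4621752 in GRCm38, plus strand). It was at 16.1, 15.2 and 15.4 CPM in floxed vehicle, at 55.5, 54.0 and 70.5 in knockout vehicle and at 74.6, 61.7 and 59.6 in knockout oxybutynin. Every knockout library lay above every floxed library, and the 2 knockout groups overlapped. The gene was 3.85-fold higher in knockout vehicle (log2 fold change 1.95, SE 0.12, adjusted p = 3.72e-10). This was the largest change among the 32 genes in that comparison.

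Pdk1 encodes a pyruvate dehydrogenase kinase known as a target of the hypoxia-inducible factor (chr2:71873224-71903858, plus strand). It was at 21.8, 21.6 and 22.5 CPM in floxed vehicle, at 58.4, 52.6 and 50.0 in knockout vehicle and at 52.0, 50.3 and 52.1 in knockout oxybutynin. The 6 knockout libraries lay together, all above the floxed ones, and the gene was 2.44-fold higher in knockout vehicle (log2 1.29, SE 0.09, adjusted p = 1.46e-09). Pdk4, the kinase known to be induced in muscle by fasting and fatty acids (chr6:5483351-5496309, minus strand), was at 66.97, 64.3 and 65.0 CPM in floxed vehicle, at 153, 156 and 116 in knockout vehicle and at 99.3, 123 and 114 in knockout oxybutynin. It was 2.17-fold higher in knockout vehicle (log2 1.12, SE 0.11, adjusted p = 8.77e-08), and the lowest knockout library, one with the drug, still lay above every floxed one. Pdk2, a kinase expressed in most tissues (chr11:95026258-95041354, minus strand), was at 22.1, 19.7 and 20.8 CPM in floxed vehicle, at 40.1, 41.0 and 50.2 in knockout vehicle and at 46.7, 45.8 and 51.8 in knockout oxybutynin. Its rise was 2.10-fold (log2 1.07, SE 0.10, adjusted p = 1.01e-07), again with no overlap between floxed and knockout libraries. Pdk3 (chrX:93764607-93832201, minus strand) was the kinase gene that was not called, at 27.3 ± 1.09 CPM in floxed vehicle and 25.0 ± 3.34 in knockout vehicle (SD, n = 3), with a 95% interval of the log2 fold change from -0.34 to 0.09.

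None of the 5 exact promoter motifs searched was found in all 4 genes that changed at least 2-fold. The bases just before their start sites are shown because these genes moved together. They come from RefSeq (GRCm38.p6), 250 bases for each gene, without those that lie inside the gene in the GENCODE annotation, which leaves 219 for Pdk4. Where RefSeq lists several starts, the one farthest upstream was used. Capitals mark matches on either strand to CACGTG (the E-box), ACGTG (1 form of the core of the hypoxia response element, also found inside CACGTG), TGATGNAA (the core of the element bound by ATF4 with a partner), AAGGTCA (a site of the estrogen-related receptors) and CCAAT (the box bound by NF-Y, ATTGG on the other strand). GCGTG, another form of the hypoxia core, was not searched and is not in capitals. It occurs in the printed windows of Pdk1 and Pdk4, and its share over all windows was not counted. The positions are chr2:71872974-71873223 on the plus strand for Pdk1, chr11:95041372-95041621 on the minus strand for Pdk2, chr6:5496310-5496528 on the minus strand for Pdk4 and chr19:4510222-4510471 on the plus strand for Pcx.
Pdk1: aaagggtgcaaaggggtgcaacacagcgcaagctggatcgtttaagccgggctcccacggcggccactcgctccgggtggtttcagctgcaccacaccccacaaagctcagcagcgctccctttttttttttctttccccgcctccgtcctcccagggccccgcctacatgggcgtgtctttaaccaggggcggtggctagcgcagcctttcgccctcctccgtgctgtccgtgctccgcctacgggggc
Pdk2: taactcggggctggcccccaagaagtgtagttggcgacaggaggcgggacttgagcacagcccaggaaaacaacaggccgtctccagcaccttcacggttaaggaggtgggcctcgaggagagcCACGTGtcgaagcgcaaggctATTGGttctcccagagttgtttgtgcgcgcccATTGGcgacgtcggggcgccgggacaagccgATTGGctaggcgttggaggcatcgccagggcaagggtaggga
Pdk4: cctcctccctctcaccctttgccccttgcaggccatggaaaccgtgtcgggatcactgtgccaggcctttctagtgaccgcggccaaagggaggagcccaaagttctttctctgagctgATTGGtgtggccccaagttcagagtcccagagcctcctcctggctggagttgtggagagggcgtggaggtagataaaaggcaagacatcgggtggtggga
Pcx: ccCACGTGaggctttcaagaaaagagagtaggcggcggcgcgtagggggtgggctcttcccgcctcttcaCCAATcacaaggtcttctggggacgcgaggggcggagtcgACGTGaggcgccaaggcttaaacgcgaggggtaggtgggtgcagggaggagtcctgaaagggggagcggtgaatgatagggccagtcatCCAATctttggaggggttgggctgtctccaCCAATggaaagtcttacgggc
Pdk2 held 1 CACGTG and 3 CCAAT matches, Pcx held 1 CACGTG, a separate ACGTG and 3 CCAAT matches, Pdk4 held 1 CCAAT match, and Pdk1 held none of the 5. Among 32851 RefSeq windows of 250 bases, 16.6% held ACGTG, 6.02% CACGTG, 3.45% TGATGNAA, 4.08% AAGGTCA and 33.9% CCAAT. Of the 32 genes, 29 had windows, 40 in all, and 37.5%, 17.5%, 2.5%, 0% and 50% of those 40 held the motifs in that order. A gene with several windows counts more than once in these percentages. By gene, 10, 5, 1, 0 and 17 of the 29 held the motifs in at least 1 window. Idh3a, Pdp1 and Me2 had no window. These matches describe letters in a window and do not show binding.

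**Figure D2:**
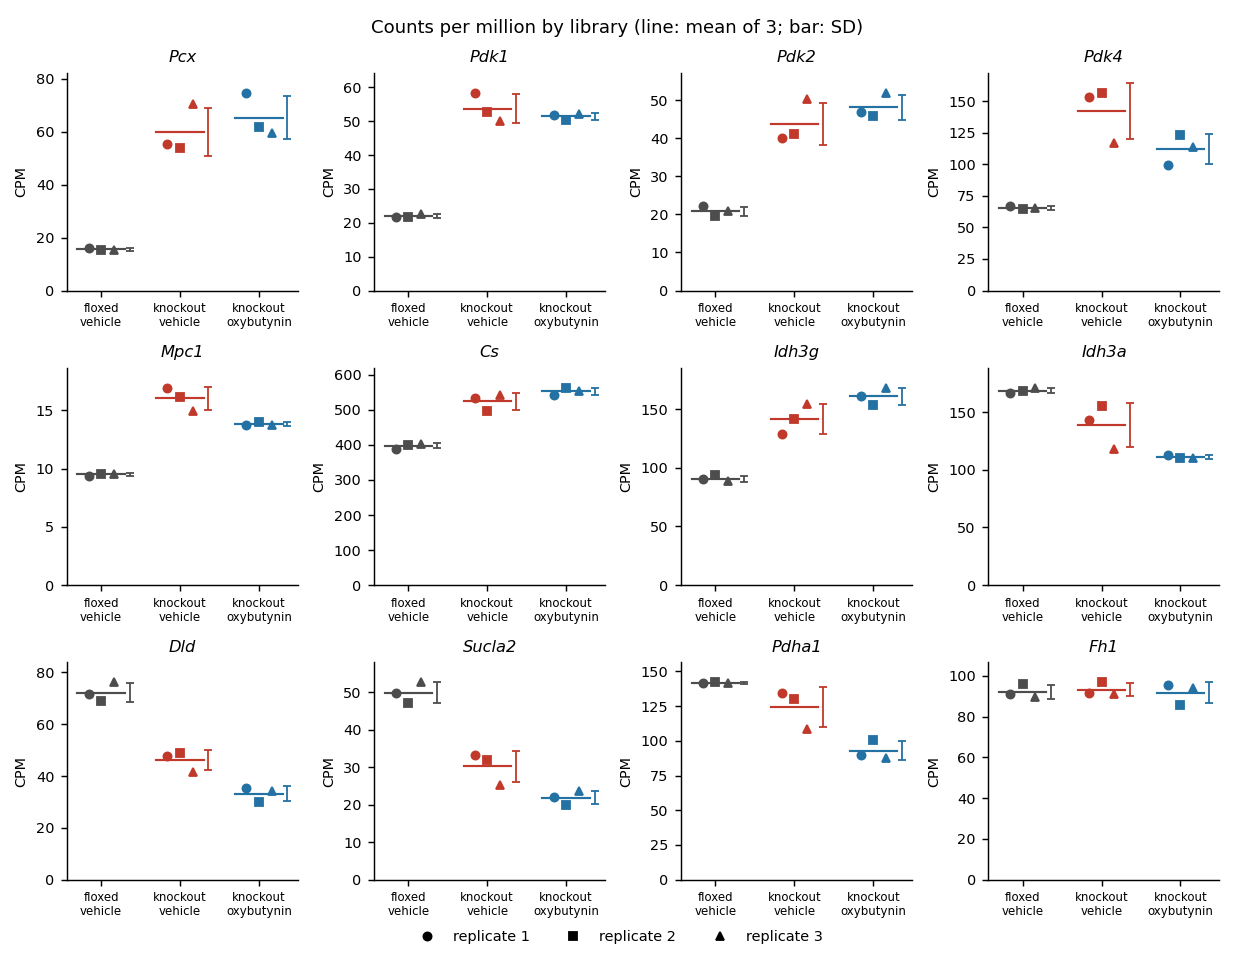
CPM (y axis, from 0) of 12 of the 32 genes in each library by group (x axis). Points are libraries, with a shape for each replicate number, lines are means of 3 and bars the SD: for Pcx, Pdk1, Pdk2, Pdk4, Mpc1, Cs and Idh3g every knockout library lies above every floxed one, for Idh3a, Dld, Sucla2 and Pdha1 every one lies below, and for Fh1 the groups overlap.

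Pdk3 made up a smaller share of the kinase transcripts in the knockout groups. This follows from the rises of Pdk1, Pdk2 and Pdk4, since Pdk3 itself was not called. Levels of different genes were set side by side as CPM per kb of exon length, with the exons of all transcripts merged. A gene whose expressed transcripts are shorter than its merged exons comes out too low on this scale. The sum of the kinase genes was 38.7 ± 0.796 in floxed vehicle, 70.9 ± 5.97 in knockout vehicle, with 63.4 ± 3.70 in knockout oxybutynin (SD, n = 3). Pdk4 made up the largest share of that sum in every group, 48.2% ± 0.360, 56.8% ± 4.47 and 50.3% ± 2.94. Pdk3 made up 27.5% ± 1.07, 13.8% ± 1.05 and 15.2% ± 0.682. Its share was 13.8 percentage points lower in knockout vehicle than in floxed vehicle, with no overlap. Pdk1 was at 7.30% ± 0.268 and 9.74% ± 0.491, without overlap, and Pdk2 was at 17.0% ± 0.715 and 19.7% ± 4.35, with overlap. With 3 libraries on each side, an exact permutation test (two-sided) cannot go below p = 0.1, so no share could pass. For Pdk3 the exact permutation p was 0.1, or 0.2 adjusted over the 12 share tests. As shares of raw counts, with no correction for length, the difference between knockout and floxed vehicle was -10.7 points for Pdk3, 5.18 for Pdk4, 4.10 for Pdk1 and 1.38 for Pdk2, beside -13.8, 8.597, 2.44 and 2.72 per length. Pdk1 made up 16.2% and 20.3% of the raw kinase counts.

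**Figure D3:**
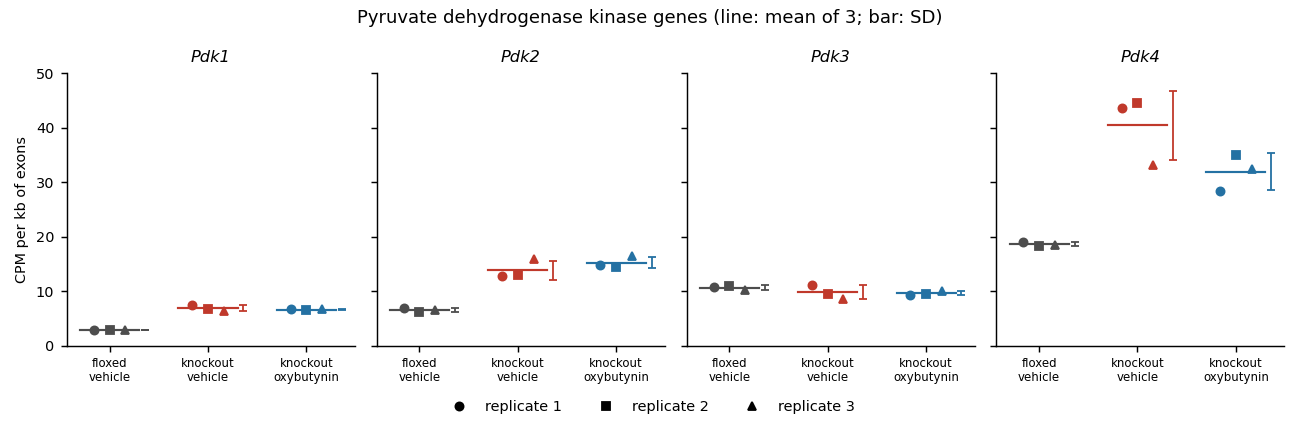
Levels of the 4 kinase genes in CPM per kb of exons (y axis, from 0, the same in all panels) by group (x axis). Points are libraries, lines means of 3 and bars the SD: Pdk4 is the highest kinase in every group, and Pdk3 lies near 10 in all 3 groups while the others are higher in the knockout groups.

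Of the 3 phosphatase genes, 2 fell as counted and 1 was not called. Pdp1, the calcium-sensitive catalytic subunit prominent in muscle, fell from 52.1 ± 3.92 to 38.1 ± 8.68 CPM (log2 fold change -0.45, SE 0.13, adjusted p = 0.00595), and Pdpr, the regulatory subunit, fell from 40.8 ± 1.68 to 32.04 ± 4.89 CPM (-0.35, SE 0.11, adjusted p = 0.00862). Pdp2, the other catalytic subunit, was not called (-0.27, SE 0.13, adjusted p = 0.0806), but was without knockout vehicle replicate 2 (-0.32, adjusted p = 0.0361). The per-length sum of Pdp1 and Pdp2 was 13.9 ± 0.739 in floxed vehicle, 10.4 ± 2.13 in knockout vehicle, with 7.98 ± 0.359 CPM per kb in knockout oxybutynin (SD, n = 3).

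As counted, the pyruvate dehydrogenase complex itself changed unevenly, gene by gene. Pdha1 encodes the alpha subunit of its first enzyme, the one the kinases phosphorylate. It was at 141, 142 and 141 CPM in floxed vehicle, at 135, 130 and 108 in knockout vehicle and at 90.0, 101 and 87.7 in knockout oxybutynin. The 3 groups did not overlap, and knockout vehicle against floxed vehicle was not called (log2 -0.19, SE 0.09, adjusted p = 0.0721), though it was without knockout vehicle replicate 2 (-0.22, adjusted p = 0.0265). Map3k15 overlaps 16.1% of the Pdha1 exon bases on the opposite strand, and it had 9 to 23 counts per library. Pdhb, the beta subunit, rose (0.37, SE 0.09, adjusted p = 0.00127). Dlat, the acetyltransferase core, and Pdhx, which anchors the third enzyme to that core, were not called (0.10 and -0.08). Dld, the dihydrolipoamide dehydrogenase that this complex shares with the 2-oxoglutarate dehydrogenase complex, fell. It was at 71.5, 68.8 and 76.3 CPM in floxed vehicle, at 47.9, 49.1 and 41.7 in knockout vehicle and at 35.5, 29.9 and 34.3 in knockout oxybutynin, so that each group lay below the one before. Its log2 fold change in knockout vehicle was -0.64 (SE 0.09, adjusted p = 1.22e-05). With the trend on GC content and length removed, Dld was instead called higher (0.30), as were Pdhb (0.44) and Pdhx (0.37). Pdha1 (0.06) and Dlat (0.03) were not called. Dld, Sucla2 and Idh1 are printed by library because of values already seen.

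Of the carrier genes, Mpc1 rose and Mpc2 was not called. Mpc1 was at 9.497 ± 0.0895 CPM in floxed vehicle, 16.0 ± 0.993 in knockout vehicle, with 13.8 ± 0.1596 in knockout oxybutynin (SD, n = 3), a log2 fold change of 0.75 in knockout vehicle (SE 0.10, adjusted p = 6.58e-06). The entry 4930506C21Rik covers 23.1% of its exon bases on the opposite strand but had at most 7 counts in a library, and the pseudogene Mpc1-ps, whose reads may be hard to separate from those of Mpc1, averaged 1.34, 2.21 and 2.08 CPM. Mpc2 ranged from 9.41 to 16.6 CPM within knockout vehicle alone. The malic enzymes, which turn malate into pyruvate, split: mitochondrial Me3 rose (0.52, SE 0.11, adjusted p = 0.000389), mitochondrial Me2 fell (-0.50, SE 0.09, adjusted p = 0.000155) and cytosolic Me1, the most abundant of them per length, was not called (0.17, SE 0.09, adjusted p = 0.0949) but was without knockout vehicle replicate 3 (0.25, adjusted p = 0.0146). Idh3b, Pdpr, Me1 and Me3 overlap genes on the opposite strand by 0.146% to 3.89% of their exon bases. Me3 was also the lowest of the 32 genes per length in floxed vehicle, at 0.659 CPM per kb over 14624 bases of merged exons. With no correction for length, Mpc1 was lower there (9.497 CPM beside 9.637).

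At the entry to the cycle, citrate synthase and the mitochondrial NADP-dependent isocitrate dehydrogenase were higher as counted. Cs, the citrate synthase that joins acetyl-CoA to oxaloacetate and the gene with the highest per-length level of the 32 in floxed vehicle (68.8 ± 1.19 CPM per kb), was at 390, 401 and 402 CPM in floxed vehicle, at 533, 498 and 541 in knockout vehicle and at 543, 564 and 552 in knockout oxybutynin. The groups did not overlap, and the rise in knockout vehicle was 1.32-fold (log2 0.40, SE 0.07, adjusted p = 0.000131). Idh2, the gene of that dehydrogenase, rose (0.57, SE 0.08, adjusted p = 1.43e-05), while its cytosolic relative Idh1 was not called (-0.15, SE 0.11, adjusted p = 0.267). Idh1 was at 63.5, 68.1 and 67.1 CPM in floxed vehicle and at 60.5, 71.7 and 47.2 in knockout vehicle, so 1 knockout library lay above and 2 below every floxed one; without replicate 2, the high one, it was called lower (-0.29, adjusted p = 0.00617). The cytosolic citrate cleaver Acly was not called (-0.12, SE 0.07, adjusted p = 0.156), nor was Glud1, the glutamate dehydrogenase that feeds 2-oxoglutarate (0.03, SE 0.08, adjusted p = 0.784).

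As counted, the subunits of single enzymes did not move together. Of the NAD-dependent isocitrate dehydrogenase, the regulatory subunit gene Idh3g rose from 90.7 ± 2.55 to 142 ± 12.6 CPM (0.64, SE 0.08, adjusted p = 2.52e-06) and Idh3b rose by less (0.30, SE 0.09, adjusted p = 0.0062), while Idh3a, the catalytic subunit, fell from 169 ± 2.36 to 139 ± 19.0 CPM (-0.28, SE 0.09, adjusted p = 0.0114). The call of Idh3a was lost with library totals as the only scaling (-0.24, adjusted p = 0.0579) and in a fit of just these 2 groups (-0.24, adjusted p = 0.0543). Per length, Idh3a made up 36.4% ± 0.642 of the 3 in floxed vehicle, 24.9% ± 3.79 in knockout vehicle, with 19.7% ± 0.299 in knockout oxybutynin, and Idh3g made up 36.7% ± 0.762, 47.6% ± 3.19 and 53.8% ± 1.90 (SD, n = 3). Among genes of the 2-oxoglutarate dehydrogenase complex, Ogdh, its first enzyme, rose (0.52, SE 0.07, adjusted p = 1.17e-05) and Dlst, its succinyltransferase, was not called (0.15, SE 0.07, adjusted p = 0.0775), but was without knockout vehicle replicate 2 (0.17, adjusted p = 0.0321). Dlst was also called by DESeq2 (0.16, adjusted p = 0.0308) and by edgeR with library totals as the only scaling (0.19, adjusted p = 0.0481). With the trend on GC content and length removed, Idh3g (0.39) and Dlst (0.22) were called higher. Idh3a (0.04), Idh3b (0.13) and Ogdh (0.07) were not called.

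Succinyl-CoA ligase pairs the alpha subunit from Suclg1 with a beta subunit that is GDP-forming (Suclg2) or ADP-forming (Sucla2). Sucla2 was at 49.8, 47.3 and 52.7 CPM in floxed vehicle, at 33.4, 31.9 and 25.4 in knockout vehicle and at 22.0, 20.1 and 23.6 in knockout oxybutynin, with each group below the one before. It had the largest fall of the 32 genes in knockout vehicle as counted (-0.73, SE 0.11, adjusted p = 1.45e-05). With the trend on GC content and length removed, Sucla2 was at -0.11 and not called. Suclg2 was not called (0.12, SE 0.11, adjusted p = 0.347), but was higher without knockout vehicle replicate 3 (0.25, adjusted p = 0.0162). It made up 46.7% ± 2.69, 61.0% ± 1.29 and 65.3% ± 2.29 of the per-length sum of both beta subunits in the 3 groups (SD, n = 3). Shares of subunits, here and above, are as counted, with no trend removed. Suclg1 was called by a narrow margin (0.25, SE 0.11, adjusted p = 0.0465). Its knockout vehicle values overlapped the floxed ones, and leaving out any of 8 of the 9 libraries ended the call, with adjusted p from 0.0517 to 0.15. Fh1, the fumarase, was at 90.9, 96.0 and 89.5 CPM in floxed vehicle, at 91.4, 96.9 and 91.1 in knockout vehicle and at 95.5, 85.9 and 93.9 in knockout oxybutynin. All 3 groups overlapped, and the 95% interval of its log2 fold change in knockout vehicle ran from -0.15 to 0.18.

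Base composition moved with these results. Over the 32 genes, whose exons ranged from 39.3% to 56.8% GC, Spearman's rho of the log2 fold change in knockout vehicle with GC content was 0.602, and over 12976 protein-coding genes it was 0.556. These are descriptions over genes that share the same libraries. When each library's smooth trend on GC content and exon length was removed, 15 genes were higher and 4 lower, beside 22.8% and 37.1% of all tested genes, and the median of all tested genes shifted from -0.01 to -0.13. Of the 13 genes called higher, 10 were still called higher: Cs (0.22), Idh3g (0.39), Suclg1 (0.28), Pdhb (0.44), Pdk1 (1.37), Pdk2 (0.51), Pdk4 (1.29), Pcx (1.38), Me3 (0.93) and Mpc1 (0.66). Pcx, Pdk1 and Pdk4 kept the largest rises, while Pdk2 then lay below Me3, Mpc2 (0.72) and Mpc1. Idh2 (0.03), Ogdh (0.07) and Idh3b (0.13) lost their calls. Of the 6 called lower, Pdpr (-0.48) and Me2 (-0.26) remained, Idh3a (0.04), Sucla2 (-0.11) and Pdp1 (0.24) lost their calls, and Dld turned to called higher (0.30, adjusted p = 0.00773). Dlst (0.22), Suclg2 (0.21), Pdhx (0.37) and Mpc2 (0.72) were newly called higher, and Pdp2 (-0.36) and Acly (-0.51) newly called lower. The myoblast markers moved as well. Pax7 turned to called lower (-0.26), Myf5 turned to called higher (0.26) and Des lost its call (-0.11). Cdh15 (-1.46) and Myog (-1.07) were still called lower, and Myod1 (-0.37) and Itga7 (-0.46) were newly called lower. Whether the trend comes from the cells or from how the libraries were made was not tested, and removing it also removes any change in the cells that goes with GC content.

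**Figure D4:**
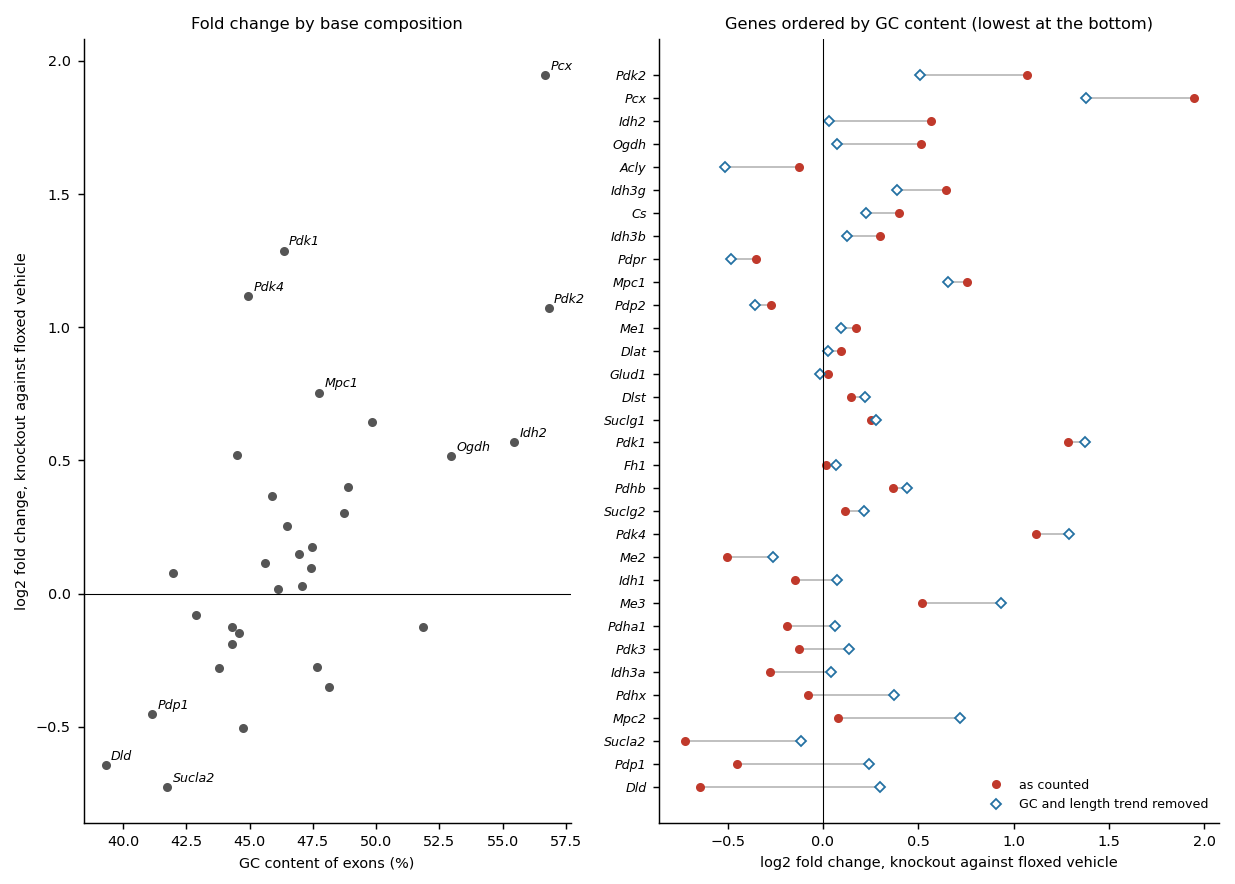
Left, log2 fold change in knockout vehicle against floxed vehicle (y axis) by GC content of the exons in percent (x axis), 1 point per gene. Right, the same fold change (x axis) of each gene (y axis, lowest GC content at the bottom) as counted (filled circles) and with the GC and length trend removed (open diamonds): Dld and Pdp1 cross 0, while Pcx, Pdk1, Pdk4 and Mpc1 stay above 0.6.

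Other genes around the cycle were taken from a list of 43, of which 40 were tested. They cover aconitase, succinate and malate dehydrogenases, transaminases, lactate dehydrogenases, carriers, lipoylation and the branched-chain keto acid dehydrogenase. In knockout vehicle, 27 of the 40 were higher, 3 were lower and 10 were not called, beside 29.9% and 33.4% of all tested genes higher and lower, with a median log2 fold change of 0.55 beside -0.01. With the GC and length trend removed, 19 were higher and 3 lower, beside 22.8% and 37.1%, and the median was 0.19 beside -0.13. The 6 with the lowest adjusted p were all higher. Pck2, the mitochondrial carboxykinase that makes phosphoenolpyruvate from oxaloacetate, rose from 63.4 ± 2.44 to 268 ± 44.5 CPM (log2 2.08, SE 0.11, adjusted p = 7.56e-11). Got1, the cytosolic aspartate transaminase, rose from 54.1 ± 2.21 to 148 ± 13.4 CPM (1.45, SE 0.08, adjusted p = 2.25e-10). Gpt2, the mitochondrial alanine transaminase (1.11), Ogdhl, a relative of Ogdh (1.34), Slc25a1, the mitochondrial citrate carrier (1.31), and Acss2, which makes acetyl-CoA from acetate outside mitochondria (1.65), followed with adjusted p from 2.11e-09 to 3.12e-09. All 6 were still called higher with the trend removed, at 1.79, 1.03, 0.80, 0.81, 0.74 and 1.89.

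Oxybutynin changed no gene of the 32 past the threshold when all 9 libraries were fitted. In knockout oxybutynin against knockout vehicle, 0 were higher and 0 lower, beside 1 gene in each direction among all tested genes (0.00636% higher and 0.00636% lower). At an unadjusted p under 0.05, 1 of the 32 was higher (Idh3g) and 8 were lower (Idh1, Idh3a, Dld, Sucla2, Pdha1, Pdk4, Pdp1 and Mpc1), beside 10.8% and 15.2% of all tested genes. The median log2 fold change of the 32 was -0.06. For the genes that changed most with knockout, the 95% intervals were -0.11 to 0.35 for Pcx, -0.24 to 0.12 for Pdk1, -0.07 to 0.35 for Pdk2 and -0.56 to -0.12 for Pdk4 (adjusted p = 0.0898).

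In 6 genes every oxybutynin library lay below every knockout vehicle library, and in 1, Cs, every one lay above (0.08, SE 0.07, adjusted p = 0.508). Over all tested genes, 11.6% lay wholly below and 10.5% wholly above. The 6 were Dld (log2 fold change -0.48, SE 0.10, adjusted p = 0.0638), Sucla2 (-0.47, SE 0.11, adjusted p = 0.0644), Idh1 (-0.42, SE 0.12, adjusted p = 0.0752), Pdha1 (-0.42, SE 0.09, adjusted p = 0.0638), Idh3a (-0.33, SE 0.09, adjusted p = 0.0755) and Mpc1 (-0.21, SE 0.10, adjusted p = 0.19). Idh1 was at 45.5, 45.1 and 43.0 CPM with the drug, just below the lowest knockout vehicle library at 47.2. In all 6, that lowest knockout vehicle library was replicate 3.

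**Figure D5:**
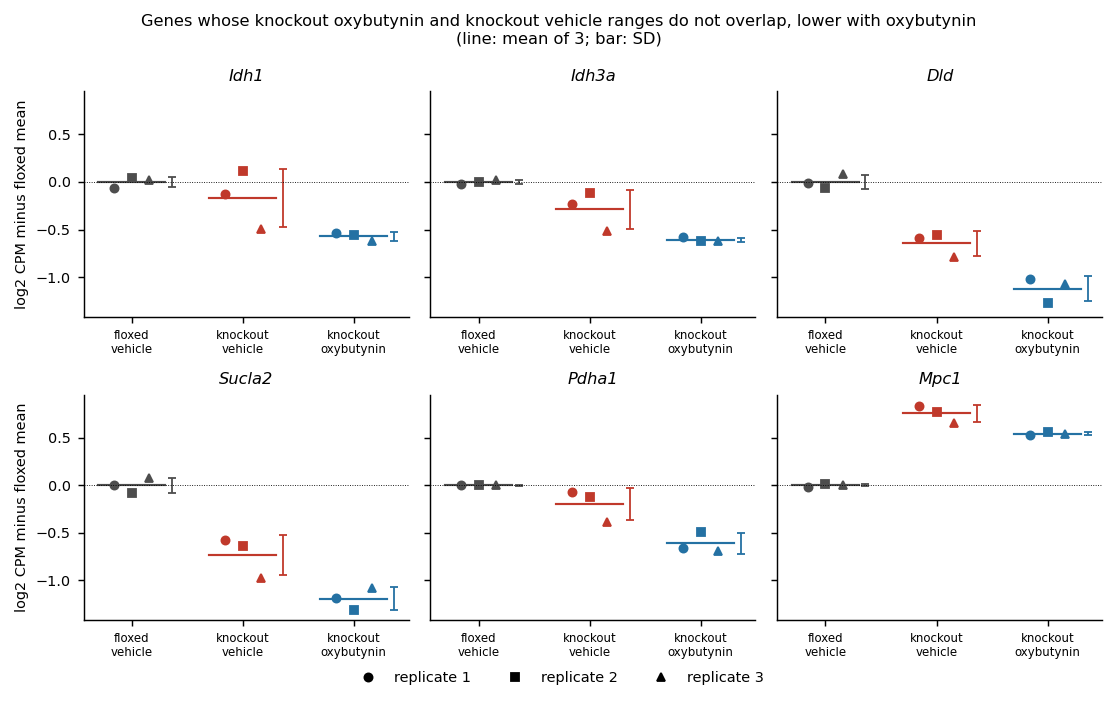
Log2 CPM minus the mean of the 3 floxed libraries (y axis) by group (x axis) for the 6 genes whose oxybutynin libraries all lie below the knockout vehicle libraries. Points are libraries, lines means of 3 and bars the SD: knockout vehicle replicate 3 (triangle) is the knockout vehicle library nearest to the oxybutynin libraries in every panel.

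The number of genes called in the drug comparison depended on that library. It was the knockout vehicle library nearest to the oxybutynin libraries, so leaving it out widens the difference between vehicle and drug. The calls without it therefore cannot decide whether the drug changed these genes. Without knockout vehicle replicate 3, 3 of the 32 genes were higher with oxybutynin (Idh2, Idh3g and Pdk2) and 11 lower (Idh1, Idh3a, Dld, Suclg2, Sucla2, Pdha1, Pdk4, Pdp1, Pdpr, Me2 and Glud1), beside 11.6% and 14.4% of all tested genes. The largest of these was Pdp1 (-0.63, SE 0.09, adjusted p = 0.00166), followed by Sucla2 (-0.58, SE 0.09, adjusted p = 0.0025) and Idh1 (-0.57, SE 0.08, adjusted p = 0.00189). With the GC and length trend removed as well, a fit chosen after seeing the data, 0 were higher and 5 lower, beside 1.56% and 2.8%. Those lower were Idh1 at -0.40, Sucla2 at -0.35, Pdha1 at -0.32, Pdk4 at -0.29 and Pdp1 at -0.40. With all 9 libraries, DESeq2 called 7 lower (Idh1, Idh3a, Dld, Sucla2, Pdha1, Pdk4 and Pdp1), beside 10.3% of the genes to which it gave an adjusted p, and edgeR with no filter on low counts called the same 7, beside 2.73%. Scaling by library totals alone called Dld, Sucla2 and Pdha1 lower, beside 0.941%, and leaving out knockout vehicle replicate 2 called Dld and Pdha1 lower, beside 0.316%. Leaving out knockout vehicle replicate 1 called none of the tested genes. Over the 32 genes, Spearman's rho of the log2 fold change with GC content was 0.632 in the drug comparison, and over the protein-coding genes it was 0.701. Of the 40 other tested genes around the cycle, 0 were called, and their median log2 fold change was 0.08.

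The last comparison, knockout oxybutynin against floxed vehicle, shares libraries with both of the others. In it 12 of the 32 genes were higher and 9 lower, beside 35.1% and 36.9% of all tested genes. Pcx was 4.20-fold higher (log2 2.07, SE 0.12, adjusted p = 9.69e-11), Pdk1 2.34-fold (1.23, SE 0.09, adjusted p = 1.54e-09), Pdk2 2.31-fold (1.21, SE 0.10, adjusted p = 1.46e-08) and Pdk4 1.71-fold (0.77, SE 0.11, adjusted p = 4.9e-06). At the other end, Sucla2 (-1.19, SE 0.11, adjusted p = 3.12e-08) and Dld (-1.12, SE 0.09, adjusted p = 1.17e-08) were more than 2-fold lower. Pdha1 (-0.61, SE 0.09, adjusted p = 9.68e-06), Idh1 (-0.57, SE 0.12, adjusted p = 0.000261) and Pdp2 (-0.34, SE 0.13, adjusted p = 0.0302) were called lower here and not in knockout vehicle against floxed vehicle. The call of Pdp2 was lost without any of floxed vehicle replicates 2 and 3, knockout vehicle replicate 1 and knockout oxybutynin replicate 3 (adjusted p from 0.0538 to 0.183), and that of Idh3b without knockout oxybutynin replicate 1 (0.22, adjusted p = 0.0674). Dlst, not called here with all libraries (0.16, adjusted p = 0.0532), was called higher without any 1 of the 3 knockout vehicle libraries (adjusted p from 0.015 to 0.0219), and Suclg1 (0.22, adjusted p = 0.0726) without knockout vehicle replicate 1 or 2 (adjusted p = 0.0302 and 0.00415). The differences between the drug and vehicle values of these genes are those of the drug comparison, and none was called there with all 9 libraries. With the GC and length trend removed, 14 genes were higher and 7 lower, beside 24.1% and 38.2%. Pcx (1.34), Pdk1 (1.44), Pdk4 (1.08) and Pdk2 (0.45) were still higher and Sucla2 (-0.40) and Pdha1 (-0.21) still lower, while Dld (-0.01), Pdp1 (-0.01) and Idh3a (-0.10) were no longer called. Of the genes called higher, Idh2 (-0.02), Idh3b (0.09) and Ogdh (0.05) lost their calls. Dlst (0.34), Suclg1 (0.34), Pdhx (0.50), Pdk3 (0.24) and Mpc2 (1.01) were newly called higher, and Acly (-0.57) newly called lower.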

How the data were processed

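RNA sequencing of 9 libraries was analysed from gene counts that the authors deposited, whole numbers that are not normalized. Total RNA was extracted with Trizol and made into directional libraries with a NEBNext kit, per the labels' protocols. The submitters' processing notes name STAR 2.7.0e, Trim Galore 0.6.0 with cutadapt, FastQC, DESeq2 1.26.0, and the builds mm10 and GRCm38. The sources used here do not give the counting tool, its strand setting or the annotation, so reads of overlapping genes on opposite strands may be mixed. Library totals, 19604971 to 26226949 counts, set the counting precision. Coordinates, exon lengths and GC content came from GENCODE M21 (GRCm38) and symbols from a name table that matched 55450 gene IDs and missed 86. No column lacked a sample (0). Groups came from the labels, and replicate numbers, given in accession order, pair nothing. Replicates differed beyond counting noise (chi-square per gene of 2.10 or more).

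Counts were tested with edgeR 4.0.16 in R 4.3.3 (filterByExpr, TMM, quasi-likelihood test, 1 mean per group, all 9 libraries, 6 residual degrees of freedom, Benjamini-Hochberg over 15720 genes, called at an adjusted p under 0.05). SEs came from the fold change and its F value, and the code was tested on simulated counts. Levels per gene are CPM, and between genes CPM per kb of merged exons. Shares of the kinases were compared by exact permutation. The alternatives were DESeq2 1.42.0, limma-voom (limma 3.58.1), RLE factors, library totals only, no low-count filter, only the 2 groups compared, each library left out, an adjusted p under 0.01, at least 1.5-fold, protein-coding genes only, raw counts for shares, and removal of the trend on GC content and length within each library (mgcv 1.9.3, entered as offsets, with 6 tested genes lacking GC content given none). Removing the trend without knockout vehicle replicate 3 was chosen after seeing the data. CPM by library is printed for Uqcrfs1, genes called with knockout or drug at an absolute log2 fold change of at least 0.8, Cs, Pdha1 and Fh1, and for further genes where stated; among the other genes around the cycle, the 6 called with the lowest adjusted p in knockout vehicle and up to 4 with the drug are named. Marker lists also covered endothelium, adipocytes, Schwann cells, and smooth muscle with pericytes. The 32 genes and the lists were chosen with earlier results of these data known. Proteins and reads were not analysed here.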

Additional observations from a re-analysis of the deposited data

How the results depend on the processing

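In knockout vehicle against floxed vehicle, leaving out each library gave 12 to 14 genes higher, 6 to 9 lower and a median log2 fold change of 0.09 to 0.16. In the drug comparison it gave 0 to 3 higher, 0 to 11 lower and a median of -0.10 to -0.04, and in knockout oxybutynin against floxed vehicle 11 to 14 higher, 8 to 9 lower and a median of -0.01 to 0.05. Among all tested genes, 16002 to 16174 per fit, knockout vehicle had 4138 to 5398 higher and 4812 to 5596 lower. The drug comparison had 0 to 1873 higher and 0 to 2315 lower. Knockout oxybutynin against floxed vehicle had 5048 to 5909 higher and 5396 to 6142 lower. With a change of at least 1.5-fold required, knockout vehicle had 6 genes higher and 2 lower, and knockout oxybutynin against floxed vehicle 6 higher and 6 lower. How many of all tested genes changed by that much was not counted, so these counts have no share to be read against. The median in knockout vehicle was 0.049 with protein-coding genes only and 0.17 with the GC and length trend removed, and that of knockout oxybutynin against floxed vehicle was 0.11 with the trend removed. With protein-coding genes only, knockout vehicle had 12 genes higher and 9 lower, beside 4027 and 4442 of 13011 tested genes. Pdha1 (-0.25), Pdp2 (-0.33) and Acly (-0.18) were then newly called lower, and Suclg1 (0.20) was no longer called. Limma-voom did not call Suclg1 either (0.24, adjusted p = 0.0668). In the drug comparison, library totals gave 3 genes lower and a median of -0.13, and DESeq2 and no low-count filter 7 each, beside 0.941%, 10.3% and 2.73% of all genes given an adjusted p.

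Among genes called with or without the trend, its removal turned the sign in knockout vehicle for Idh3a (0.044), Dld (0.30), Pdhx (0.37) and Pdp1 (0.24), and in knockout oxybutynin against floxed vehicle for Idh2 (-0.019), Pdhx (0.50) and Pdk3 (0.24). A further 4 and 2 genes turned sign that were not called either way. With knockout vehicle replicate 3 also left out, knockout vehicle had 16 genes higher, 3 lower and a median of 0.17, the drug comparison 5 lower, and knockout oxybutynin against floxed vehicle a median of 0.11. Of 16097 tested genes, 3351 were then higher and 5449 lower in knockout vehicle, and 450 were lower in the drug comparison. The turned values were then 0.18 (Idh1), 0.091 (Idh3a), 0.33 (Dld), 0.31 (Pdhx) and 0.38 (Pdp1), and against floxed vehicle with the drug -0.013 (Idh2), 0.14 (Fh1), 0.50 (Pdhx) and 0.24 (Pdk3). Their cause was not tested.

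Of the other markers, endothelium, adipocyte and Schwann cell sums were at most 2.93 CPM in any library, and smooth muscle and pericyte markers, mostly Rgs5, summed to 46.5 to 49.0, 34.5 to 40.3 and 27.5 to 28.6 CPM in floxed vehicle, knockout vehicle and knockout oxybutynin. The drug comparison rests on 3 libraries a group, uneven in knockout vehicle; the lowest count of any of the 32 genes in a library was 184.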
